A study of Mus musculus with 14 samples.

Results

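Sorted liver sinusoidal endothelial cells (LSECs) of mice were examined here for 10 transcripts that blood-derived myeloid cells are known for. 5 of them are neutrophil genes (S100a8, S100a9, Csf3r, Lcn2 and Ngp) and 5 are monocyte genes (Ly6c2, Ccr2, Lyz2, Plac8 and Itgam). They were the rows of the count table whose Ensembl gene identifier belongs to these symbols in the GENCODE vM21 annotation, 10 of 54524 rows, and all 10 passed the filter on low counts that left 26626 genes to test. The 14 libraries came from 14 male Balb/c mice, for which the labels give an age of 10 to 12 weeks (the study's methods give a somewhat older range), with 4 mice that received no injection (healthy) and 2, 4 and 4 mice killed 1, 3 and 7 days after a single intraperitoneal injection of CCl4 at 0.5 µL per g body weight in mineral oil. CCl4 is a solvent that injures hepatocytes, and because the healthy mice received no oil, an effect of the vehicle or of the injection cannot be told apart from that of CCl4. Cells were sorted as CD32 positive, F4/80 negative, without the ultraviolet autofluorescence of stellate cells and negative for propidium iodide. According to the study's methods they were also negative for CD45, the surface protein of leukocytes, while the labels do not list that antibody. The day 1 group held 2 mice since 2 further RNA samples were set aside for low RNA integrity by the study's account, so its values rest on a pair of animals.

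Neutrophils and classical monocytes are made in the bone marrow, circulate in blood and enter injured liver within hours to days. Neutrophils carry the calcium-binding alarmin pair S100A8 and S100A9 and several sets of granules, whose proteins are transcribed in a fixed order while the cell matures, so that early granule genes are largely silent in circulating cells. Classical mouse monocytes carry Ly6C on their surface and follow CCL2 through its receptor CCR2, and they lose Ly6C and gain lysozyme as they become macrophages. Lyz2, Plac8 and Itgam are shared by neutrophils, monocytes and macrophages, Plac8, Ly6c2 and Ccr2 also by plasmacytoid dendritic cells, and Lcn2 is also made by hepatocytes in the acute phase response, so the split into neutrophil and monocyte genes is one of emphasis.

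Library totals lay between 46401496 and 103912264 counts. Day 3 replicates 1 and 2 stood apart from the rest, with 34678 and 34768 genes detected against 22986 and 28203 in day 3 replicates 4 and 3 and 27283 to 30735 in the other 10 libraries. The LSEC marker list of 14 genes summed to 19280 to 23660 CPM (counts scaled to a common library total) in healthy and 12040 to 17360 CPM in the 10 injected mice, all below every healthy mouse, against 704.6 to 5374 CPM for 12 genes that leukocytes share and 306.6 to 2294 CPM for 11 Kupffer cell genes. Ptprc, which encodes CD45, was read in all 14 libraries, at 36.9 to 109.6 CPM in healthy, 128.1 and 177.4 CPM at day 1, 46.7 to 269.6 CPM at day 3 and 134.0 to 153.9 CPM at day 7, and it passed the test on no day. In such bulk libraries, fewer cells of a type and less RNA per cell cannot be told apart.

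After CCl4 all 5 neutrophil genes had their highest group mean at day 1. Of the monocyte genes, Itgam was highest at day 1, Ly6c2, Ccr2 and Plac8 at day 3 and Lyz2 at day 7. At day 1, 4 of the 10 genes rose against healthy (S100a8, Csf3r, Lcn2 and Itgam), where 2.42% of all genes tested rose. All 10 were higher in both day 1 mice than in every healthy mouse, against 20.0% of all genes. At day 3, 5 rose (Lcn2, Ly6c2, Ccr2, Lyz2 and Plac8), where 4.62% of all genes did, and 3 of the 10 did not overlap with healthy, against 7.53%. At day 7, 2 rose (Lcn2 and Lyz2), where 2.19% of all genes did, and 5 of the 10 did not overlap with healthy, against 8.72%. The median log2 difference from healthy of the neutrophil genes was 5.47, 3.80 and 1.04 at days 1, 3 and 7 and that of the monocyte genes 2.32, 2.77 and 2.26, beside -0.03, 0.18 and 0.02 for all genes tested. The 3 comparisons share the same 4 healthy libraries.

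**Figure D1:**
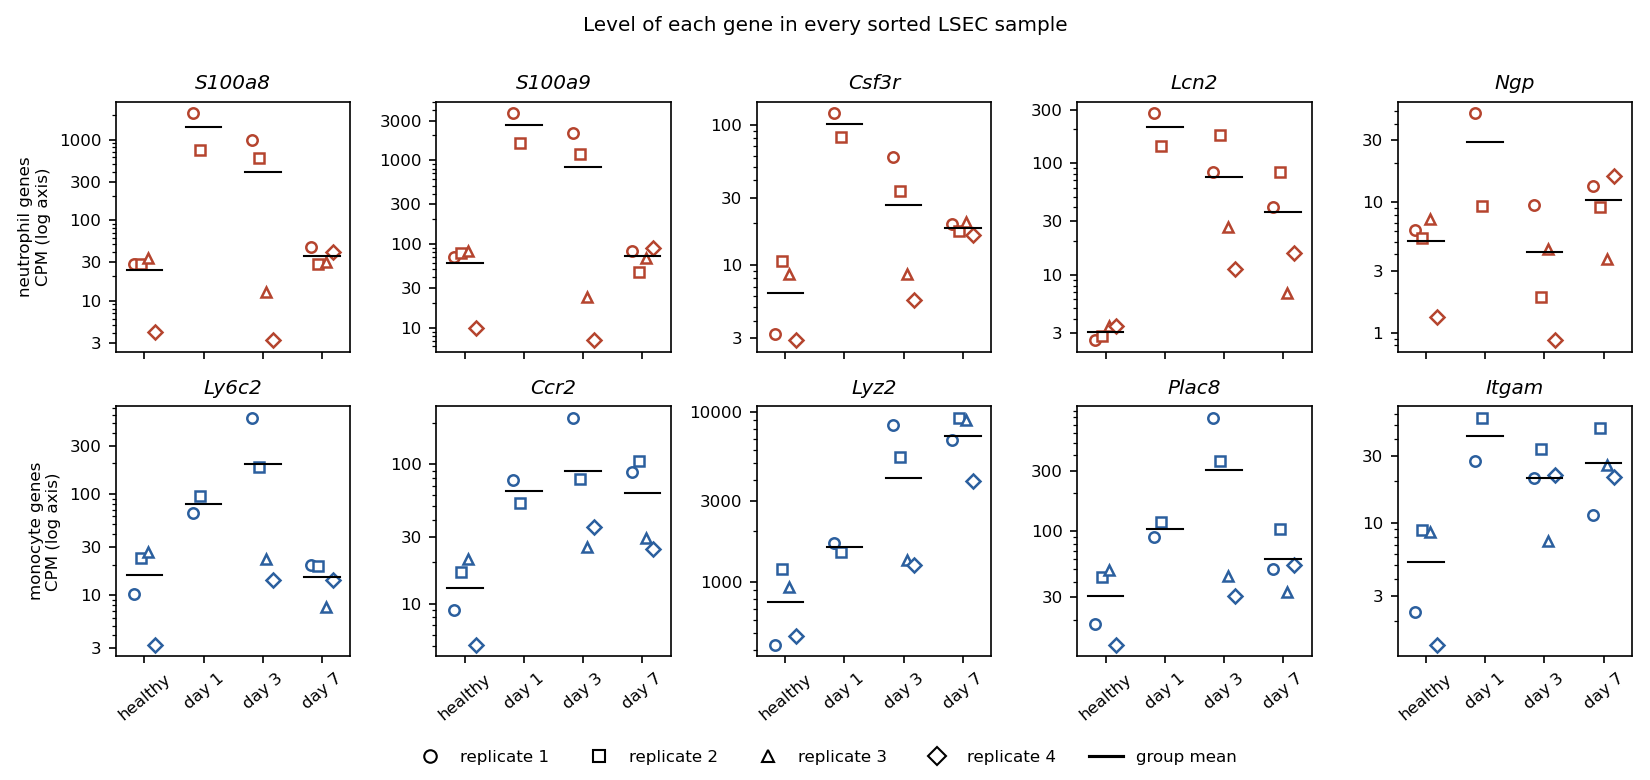
CPM, on log axes, of the 5 neutrophil genes (upper row, red) and the 5 monocyte genes (lower row, blue) in each of the 14 LSEC libraries by day, with 1 symbol per replicate and a bar at the group mean. Both day 1 symbols lie above all 4 healthy ones in every panel, and at day 3 replicates 1 and 2 lie far above replicates 3 and 4 for S100a8, S100a9, Ly6c2 and Plac8.

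S100a8 and S100a9 encode the 2 chains of calprotectin, an abundant cytosolic protein of neutrophils. The genes lie next to each other on mouse chromosome 3 (GRCm38.p6), S100a8 at chr3:90668978-90670035 on the plus strand and S100a9 at chr3:90692632-90695721 on the minus strand, with 22596 bases between them. Because the pair moved together more closely than any other 2 of the 10 genes, the sequence upstream of each RefSeq start is shown, 5′ to 3′ on the gene's own strand and cut where the GENCODE gene begins, from chr3:90668821-90668977 and chr3:90695722-90695971. Capitals mark the letters GAGGAA, the core bound by the myeloid factor PU.1, or TTGCNNAA, a form of the C/EBP site, on either strand, so that TTCCTC is a match of the first.
S100a8: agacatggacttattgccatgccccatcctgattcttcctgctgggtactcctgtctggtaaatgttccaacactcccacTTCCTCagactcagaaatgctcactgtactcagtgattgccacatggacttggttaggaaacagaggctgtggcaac
S100a9: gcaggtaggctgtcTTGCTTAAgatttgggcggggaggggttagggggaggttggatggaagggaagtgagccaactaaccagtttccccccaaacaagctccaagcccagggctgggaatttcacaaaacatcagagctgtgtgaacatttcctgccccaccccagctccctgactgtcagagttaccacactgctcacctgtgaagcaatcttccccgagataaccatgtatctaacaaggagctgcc
In the 250 bases before the start, GAGGAA occurred in 23.3% of 32851 RefSeq promoters and in 6 of the 10 genes (S100a8, Csf3r, Lcn2, Ly6c2, Plac8 and Itgam), and TTGCNNAA in 9.56% of promoters and in 4 of the 10 (S100a9, Lcn2, Ngp and Plac8). The shares are per promoter, while a gene counted if any of its promoters matched. Ly6c2 and Plac8 have several promoters, so the 2 measures are not strictly alike. The motifs share no letters in either window printed, and a match is a run of letters, not evidence of binding.

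Healthy LSECs held S100a8 at 28.8, 28.6, 34.0 and 4.03 CPM, in replicate order. The 2 day 1 libraries held 2140 and 736 CPM. At day 3 the values were 992, 590, 12.8 and 3.21 CPM, and at day 7 they were 45.8, 28.9, 29.9 and 39.8 CPM. Both day 1 mice were far above all healthy mice, the 4 day 3 mice split into 2 that approached day 1 and 2 at or below the healthy level, and the day 7 values overlapped with healthy. S100a8 rose at day 1 by 5.91 on the log2 scale (SE 1.48, adjusted p = 0.0395), a 60.3-fold higher level. This call was lost on leaving out any 1 of the 6 libraries compared (adjusted p 0.0685 to 0.291, log2 difference 4.95 to 6.49). At day 3 the log2 difference was 4.07 (SE 1.29, adjusted p = 0.0755), which was called without day 3 replicate 4 (4.36, adjusted p = 0.0165) or replicate 3 (4.27, adjusted p = 0.043), and at day 7 it was 0.60 (SE 1.14, adjusted p = 0.809).

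S100a9 followed its partner. Its healthy levels were 69.6, 77.7, 81.8 and 9.99 CPM, and its day 1 levels 3692 and 1595 CPM. Day 3 gave 2107, 1182, 23.5 and 7.05 CPM and day 7 gave 81.9, 46.5, 67.3 and 90.0 CPM. As for S100a8, both day 1 mice and day 3 replicates 1 and 2 stood above all others, and day 3 replicate 4 and healthy replicate 4 were the lowest 2 libraries of all 14. The log2 difference of S100a9 from healthy was 5.47 at day 1 (SE 1.46, adjusted p = 0.0529), 3.80 at day 3 (SE 1.28, adjusted p = 0.093) and 0.26 at day 7 (SE 1.14, adjusted p = 0.929), none past the threshold. Without day 3 replicate 4 the day 3 value was called (adjusted p = 0.0214). From library to library the ratio of S100a9 to S100a8 stayed between 1.61 and 2.72 while S100a8 itself ranged from 3.21 to 2140 CPM.

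Csf3r encodes the receptor for granulocyte colony-stimulating factor, which drives the production and release of neutrophils. It was at 3.20, 10.7, 8.58 and 2.88 CPM in healthy, 121.2 and 81.1 CPM at day 1, 58.8, 33.4, 8.60 and 5.64 CPM at day 3 and 19.6, 17.4, 20.2 and 16.2 CPM at day 7. Day 1 and day 7 did not overlap with healthy, and day 7 was the tightest group, with its highest value 1.25 times its lowest. Csf3r rose at day 1 by 3.99 on the log2 scale (SE 0.75, adjusted p = 0.00858), a call lost only without day 1 replicate 1 (adjusted p = 0.097). The day 3 difference of 2.07 (SE 0.64, adjusted p = 0.0688) was called without day 3 replicate 4 (adjusted p = 0.0205), and the day 7 difference was 1.53 (SE 0.63, adjusted p = 0.185).

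Lcn2 encodes lipocalin 2, an iron-siderophore-binding protein of neutrophil specific granules and of the acute phase. It was the steadiest of the 10 genes in healthy LSECs, at 2.58, 2.82, 3.47 and 3.50 CPM (mean 3.09 ± 0.47, SD, n = 4). It reached 280.4 and 141.5 CPM at day 1, 83.4, 179.4, 27.0 and 11.2 CPM at day 3, and 40.2, 83.8, 6.79 and 15.7 CPM at day 7. Every injected mouse exceeded every healthy mouse, on all 3 days. Lcn2 rose by 6.09 at day 1 (SE 1.00, adjusted p = 0.00401), 4.60 at day 3 (SE 0.89, adjusted p = 0.00881) and 3.57 at day 7 (SE 0.85, adjusted p = 0.0397) on the log2 scale, or 68.2-, 24.3- and 11.8-fold. The day 1 and day 3 calls held with any 1 library left out (highest adjusted p 0.0382 and 0.0347), and the day 3 call also held without both day 3 replicates 1 and 2, whereas the day 7 call was lost without any 1 of the 4 healthy mice or day 7 replicate 2 (highest adjusted p 0.135). Hepatocytes, which also make Lcn2 in the acute phase, were read by a list of 10 cell type markers not chosen for that response. The list summed to 170.0 to 7203 CPM in healthy, 30.2 to 120.3 CPM at day 1, 757.3 to 2762 CPM at day 3 and 737.1 to 5878 CPM at day 7. None of the 10 was called higher on any day by edgeR (0 at days 3 and 7 at an unadjusted p under 0.05, 0 on both by DESeq2 and 0 and 6 by limma-voom). At day 1, 1 (Hpd) fell by edgeR, with 9 at an unadjusted p under 0.05, 9 lower by DESeq2 and 0 by limma-voom. The list's median log2 difference at day 1 was -5.26, beside -0.03 for all genes tested. Healthy replicate 4 held the 7203 CPM (its Lcn2 was 3.50 CPM), beside 170.0 to 334.4 CPM in the other 3 healthy mice. The absence of calls at days 3 and 7 did not hold without it, since with healthy replicate 4 and day 3 replicate 4 left out, a choice made after seeing the data, 2 of the 10 hepatocyte genes were higher than healthy at day 3 and 9 at day 7, and 1 was lower at day 1. The part of hepatocyte RNA in the Lcn2 values was not tested.

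Ngp, neutrophilic granule protein, is a specific granule gene transcribed in marrow precursors. Its levels were 6.19, 5.36, 7.51 and 1.33 CPM in healthy, 48.7 and 9.47 CPM at day 1, 9.49, 1.87, 4.40 and 0.87 CPM at day 3 and 13.3, 9.16, 3.68 and 15.9 CPM at day 7. The day 1 mice differed 5.14-fold from each other, and day 3 replicate 2, which held 590 CPM of S100a8, held less Ngp than 3 of the 4 healthy mice. Ngp passed the test on no day, with log2 differences of 2.51 (SE 0.86, adjusted p = 0.13), -0.29 (SE 0.73, adjusted p = 0.854) and 1.04 (SE 0.74, adjusted p = 0.441) at days 1, 3 and 7, and without day 1 replicate 1 the day 1 value was 0.89.

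**Figure D2:**
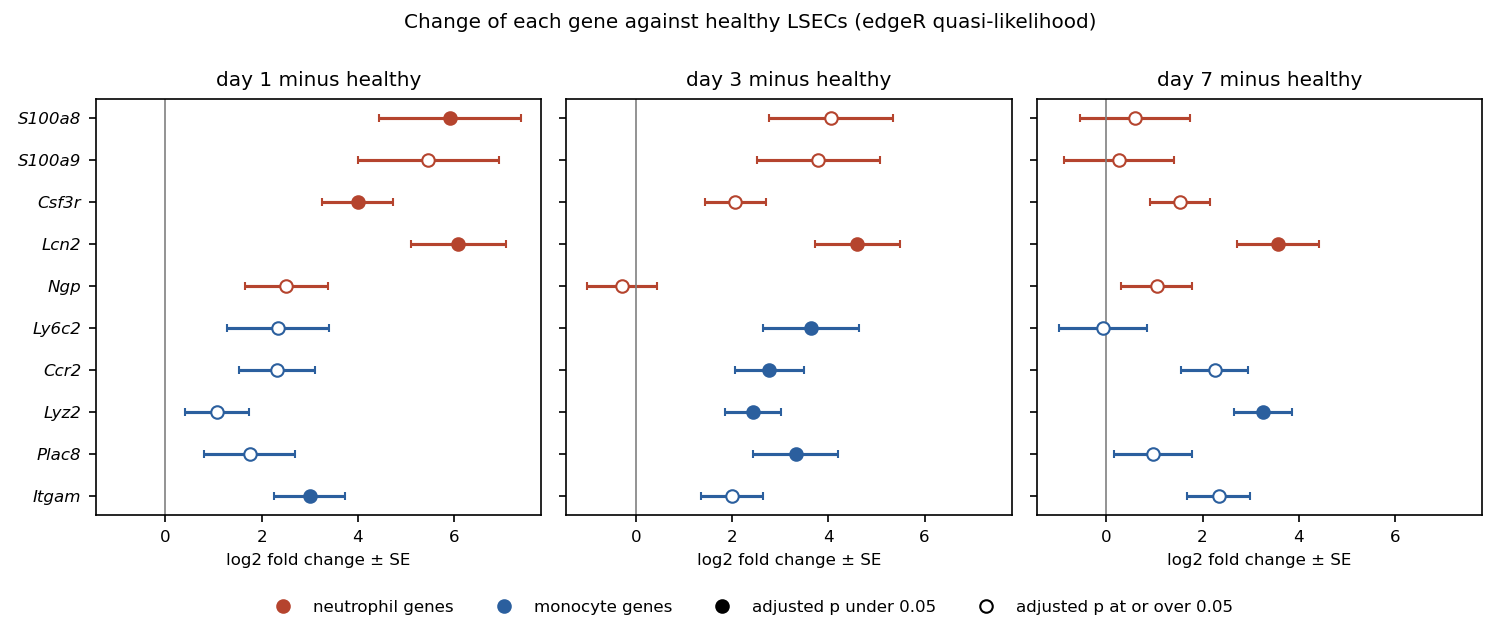
Log2 difference from healthy, with SE bars from the edgeR fit, for each of the 10 genes at days 1, 3 and 7, filled where the adjusted p was under 0.05. S100a8 and S100a9 return towards 0 by day 7 (0.60 and 0.26), while Csf3r and Lcn2 fall to 1.53 and 3.57. Ngp is at -0.29 at day 3 and 1.04 at day 7, and Lyz2 goes from 1.08 at day 1 to 3.26 at day 7.

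Further neutrophil genes were grouped by the stage of maturation at which they are transcribed. Of 10 genes of mature neutrophils, 5 rose at day 1 (Cxcr2, Retnlg, Fpr2, Trem1 and Il1r2), 1 at day 3 (Trem1) and 0 at day 7 by edgeR (0 at an unadjusted p under 0.05, 0 by DESeq2 and 0 by limma-voom). All 10 were higher in both day 1 mice than in every healthy mouse, against 20.0% of all genes. The list's median log2 difference was 5.11, 2.73 and 0.78 at days 1, 3 and 7. Cxcr2, the chemokine receptor that draws neutrophils out of marrow and into tissue, went from 1.05 to 2.99 CPM in healthy to 141.7 and 70.2 CPM at day 1 (log2 difference 5.72, SE 1.34, adjusted p = 0.0283). Retnlg, a resistin-like gene of mature neutrophils, went from 1.18 to 7.92 CPM to 522.9 and 175.5 CPM (log2 difference 6.24, SE 1.61, adjusted p = 0.0465). Ly6g, the gene behind the most used neutrophil surface marker in mice, was at 0 to 0.59 CPM in healthy, 12.7 and 3.84 CPM at day 1, 0 to 3.18 CPM at day 3 and 0.42 to 1.40 CPM at day 7, and its day 1 difference of 4.80 (SE 1.42) had an adjusted p of 0.0805. The 2 libraries at 0 for Ly6g were healthy replicate 4 and day 3 replicate 4, where a count of 0 allows up to 3 counts.

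Of 6 specific granule genes, 2 rose at day 1 (Mmp8 and Olfm4), 1 at day 3 (Mmp8) and 0 at day 7 by edgeR (2 at an unadjusted p under 0.05, 1 by DESeq2 and 2 by limma-voom). Mmp8, neutrophil collagenase, went from 0.56 to 1.64 CPM in healthy to 253.7 and 89.8 CPM at day 1 (log2 difference 7.23, SE 1.16, adjusted p = 0.00357). Olfm4, which marks a subset of neutrophils, went from at most 0.08 CPM to 12.7 and 5.39 CPM (log2 difference 7.48, SE 1.46, adjusted p = 0.0109). Ltf, lactoferrin, was at 2.55 and 1.61 CPM at day 1 beside 0.47 to 2.30 CPM in healthy (log2 difference 0.47, SE 0.59, adjusted p = 0.778), and Camp, cathelicidin, was at 1.22 and 0.75 CPM beside 0.34 to 2.77 CPM (-0.70, SE 1.30, adjusted p = 0.868). Ltf and Camp, which marrow precursors transcribe, stayed within or close to their healthy range in the same 2 libraries in which Mmp8 was at its highest. The other 4 of the 6 were higher in both day 1 mice than in every healthy mouse, against 20.0% of all genes. The list's median log2 difference at day 1 was 3.36. Cd177 was at 14.35 and 7.64 CPM beside 0.11 to 1.11 CPM in healthy, and Cebpe at 0.38 and 0.36 CPM beside 0 to 0.15 CPM. Ngp, also transcribed in marrow precursors, was above all healthy mice in both as well. Primary granule genes, which precursors transcribe earlier still, were near the limit of reading, the list of 5 summing to 0.44 to 3.40 CPM in healthy and 2.89 to 3.09 CPM at day 1. None of the 5 rose at day 1 by edgeR (2 at an unadjusted p under 0.05, 0 by DESeq2 and 2 by limma-voom) or at day 7 (2, 1 and 2), and 1 rose at day 3 (Prtn3, log2 difference 3.17, SE 0.81, adjusted p = 0.0318). Mpo, myeloperoxidase, was at 0.39 and 0.77 CPM at day 1 beside 0.15 to 1.33 CPM in healthy, and Elane, neutrophil elastase, at 1.01 and 0.54 CPM beside 0.15 to 1.03 CPM.

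**Figure D3:**
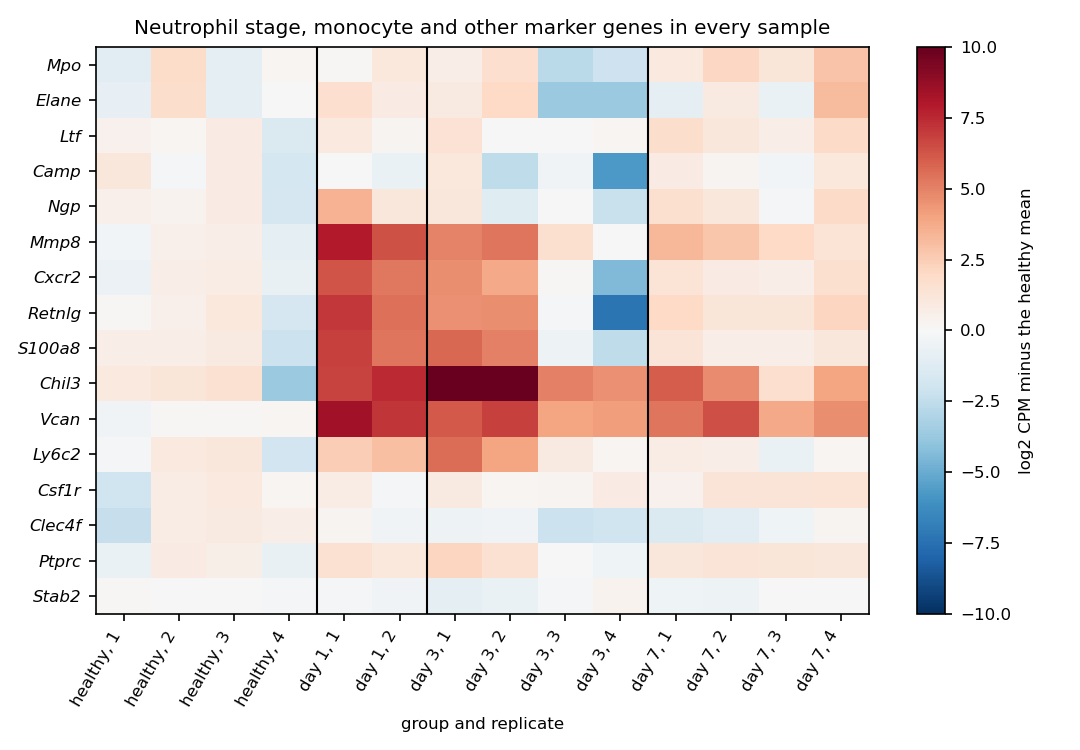
Heat map of log2 CPM minus the mean of the 4 healthy libraries, for 16 neutrophil, monocyte and other marker genes (rows) in the 14 libraries (columns), coloured from blue (lower) to red (higher). Red runs through Mmp8, Cxcr2, Retnlg and S100a8 in both day 1 libraries and in day 3 replicates 1 and 2, while Ltf and Mpo stay pale there.

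Ly6c2 encodes the Ly6C surface protein that defines classical monocytes. It has a near copy, Ly6c1 on the same stretch of chromosome 15, that endothelial and T cells are known to use. Their coding sequences (transcripts Ly6c2-201 and Ly6c1-201, GENCODE vM21) are both 396 bases long and identical at 387 positions (97.7%), with the longest identical run 188 bases, so that a short read from within it cannot be placed in one of the genes. They are shown from coding base 1 to 300, the stretch that holds 7 of the 9 differing bases, which are in capitals.
Ly6c2: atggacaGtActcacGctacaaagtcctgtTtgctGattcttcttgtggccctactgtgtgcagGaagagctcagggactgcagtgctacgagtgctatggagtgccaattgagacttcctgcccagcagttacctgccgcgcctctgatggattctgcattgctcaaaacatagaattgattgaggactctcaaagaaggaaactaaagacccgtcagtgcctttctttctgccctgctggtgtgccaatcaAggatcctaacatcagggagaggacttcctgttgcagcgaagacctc
Ly6c1: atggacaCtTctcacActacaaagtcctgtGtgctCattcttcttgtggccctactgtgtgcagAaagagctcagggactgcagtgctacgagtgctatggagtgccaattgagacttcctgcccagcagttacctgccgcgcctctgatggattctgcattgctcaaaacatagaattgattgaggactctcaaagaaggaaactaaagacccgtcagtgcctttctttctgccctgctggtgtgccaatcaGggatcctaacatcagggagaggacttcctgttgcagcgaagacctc
Over the whole transcripts the copies are less alike, since 159 of the 2737 windows of 100 bases in Ly6c2 (5.81%) occur unchanged in Ly6c1. Counts for Ly6c2 and Ly6c1 were also close to proportional, Ly6c1 taking between 39.0% and 52.4% of their sum in all 14 libraries, and how far the authors' counting could separate them is unknown.

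In healthy LSECs Ly6c2 was at 10.4, 23.2, 26.8 and 3.22 CPM and at day 1 at 65.0 and 95.7 CPM. Day 3 held 568.6, 185.4, 22.7 and 14.1 CPM, and day 7 held 19.7, 19.4, 7.56 and 14.1 CPM. Day 3 replicates 1 and 2 were the highest libraries of all, the other 2 day 3 mice lay inside the healthy range, and day 7 lay inside it too. Ly6c2 rose at day 3 by 3.64 on the log2 scale (SE 1.00, adjusted p = 0.0439), and the differences at day 1 (2.34, SE 1.06, adjusted p = 0.269) and day 7 (-0.07, SE 0.91, adjusted p = 0.981) did not pass. The day 3 call was lost without any 1 healthy mouse or without day 3 replicate 1 or 2 (highest adjusted p 0.162). Ly6c1 rose at day 3 as well (3.43, SE 0.91, adjusted p = 0.0364).

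Ccr2 encodes the receptor for the monocyte chemoattractants CCL2, CCL7 and CCL12. It was at 9.06, 17.0, 20.9 and 5.06 CPM in healthy, 76.7 and 53.0 CPM at day 1, 217.1, 78.2, 25.6 and 35.4 CPM at day 3 and 87.9, 106.5, 29.6 and 24.7 CPM at day 7. Every injected mouse was above every healthy mouse, with the lower mice of days 3 and 7 at 24.7 to 35.4 CPM against a healthy maximum of 20.9 CPM. Ccr2 rose at day 3 by 2.78 on the log2 scale (SE 0.71, adjusted p = 0.0319), with differences of 2.32 at day 1 (SE 0.78, adjusted p = 0.125) and 2.26 at day 7 (SE 0.69, adjusted p = 0.0902). Its day 3 call was lost without any 1 healthy mouse or day 3 replicate 1 or 2 (highest adjusted p 0.112).

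Plac8, a small cysteine-rich protein of monocytes, neutrophils and plasmacytoid dendritic cells, was at 18.5, 43.5, 49.1 and 12.6 CPM in healthy and 90.9 and 118.1 CPM at day 1. It reached 798.3, 361.0, 44.7 and 30.6 CPM at day 3 and was at 50.7, 105.0, 33.4 and 54.6 CPM at day 7. As with Ly6c2, day 3 replicates 1 and 2 were the highest and replicates 3 and 4 lay inside the healthy range. Plac8 rose at day 3 by 3.32 (SE 0.88, adjusted p = 0.0369), while the differences were 1.76 at day 1 (SE 0.95, adjusted p = 0.372) and 0.98 at day 7 (SE 0.81, adjusted p = 0.52). Leaving out any 1 healthy mouse or day 3 replicate 1 or 2 ended the day 3 call (highest adjusted p 0.124).

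Lyz2 encodes the lysozyme of the myeloid lineage and was the most abundant of the 10 in healthy LSECs, at 427, 1200, 933 and 481 CPM. It was at 1701 and 1509 CPM at day 1, 8376, 5488, 1347 and 1266 CPM at day 3 and 6837, 9304, 9056 and 3919 CPM at day 7. Unlike the other 9 genes it had its highest group mean at day 7, when all 4 mice were above every healthy and every day 1 mouse, and its lowest day 3 values were still above the healthy maximum. Lyz2 rose at day 3 by 2.44 on the log2 scale (SE 0.59, adjusted p = 0.0247) and at day 7 by 3.26 (SE 0.61, adjusted p = 0.0142), a 9.58-fold higher level, with a day 1 difference of 1.08 (SE 0.66, adjusted p = 0.449). The day 3 call was lost without healthy replicate 1, 3 or 4 or day 3 replicate 1 or 2 (highest adjusted p 0.0769), and the day 7 call only without healthy replicate 1 (adjusted p = 0.061). Its copy Lyz1, a lysozyme of intestinal Paneth cells with 95.1% identity over 447 coding bases, took 0.66% to 1.16% of the sum of both in every library and rose at day 7 too (3.02, SE 0.60, adjusted p = 0.0187). At so even a share, reads of Lyz1 and misplaced reads of Lyz2 cannot be told apart.

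Itgam encodes integrin αM (CD11b), which pairs with the β2 chain Itgb2 on neutrophils, monocytes and macrophages. It was at 2.31, 8.95, 8.60 and 1.34 CPM in healthy, 27.7 and 56.9 CPM at day 1, 21.1, 34.1, 7.38 and 22.0 CPM at day 3 and 11.4, 47.8, 26.2 and 21.5 CPM at day 7. Day 1 and day 7 lay above all healthy mice and day 3 did so but for replicate 3. Itgam rose at day 1 by 3.00 (SE 0.73, adjusted p = 0.0351), a call lost without healthy replicate 1 or 4 or either day 1 mouse (highest adjusted p 0.222), and its differences at days 3 and 7 were 2.00 (SE 0.64, adjusted p = 0.0781) and 2.33 (SE 0.65, adjusted p = 0.0663), the latter called without day 7 replicate 1 (adjusted p = 0.0379). The annotation places a second gene, Gm49368, over Itgam on the same strand, and 3352 of 5213 windows of 100 bases of Itgam (64.3%) occur in it, so the counts of both were also summed. The sum was 3.82, 8.96, 8.61 and 3.09 CPM in healthy, 72.9 and 64.3 CPM at day 1, 23.7, 39.1, 9.74 and 22.0 CPM at day 3 and 23.4, 67.5, 28.8 and 28.8 CPM at day 7. In the sum all 10 injected mice were above all healthy mice, and the order of the 2 day 1 mice turned round.

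Per kilobase of exon, the healthy means were led by Lyz2 (577.6 CPM per kb), S100a9 (114.5) and S100a8 (34.4), and they ended with Csf3r (1.76), Lcn2 (1.18) and Itgam (1.06). At day 1 the order was S100a9 (5064 CPM per kb), S100a8 (2072), Lyz2 (1220) and Lcn2 (80.4). At day 3 Lyz2 led again (3130 CPM per kb), ahead of S100a9 (1590) and S100a8 (575.5). It still led at day 7 (5531 CPM per kb), ahead of S100a9 (136.8) and S100a8 (52.0).

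Of 7 other genes of classical monocytes, 4 rose at day 1 (Vcan, Chil3, Ccr1 and F13a1), 6 at day 3 (all but Csf1r) and 2 at day 7 (Vcan and F13a1), with list medians of 3.59, 3.07 and 1.75 on the log2 scale. Vcan, the proteoglycan versican, was at 0.11 to 0.17 CPM in all 4 healthy mice and rose on every day, by 8.07 (SE 0.91, adjusted p = 0.000338), 5.92 (SE 0.81, adjusted p = 0.00192) and 5.56 (SE 0.79, adjusted p = 0.00481). Chil3, a chitinase-like protein of monocytes and macrophages, was at 0 to 0.88 CPM in healthy, 33.2 and 54.1 CPM at day 1 and 296.2, 288.4, 10.1 and 7.39 CPM at day 3, when it rose by 8.12 (SE 1.57, adjusted p = 0.00881). Csf1r, the receptor for the macrophage growth factor, was at 24.4 to 187.9 CPM in healthy and 88.9 to 244.6 CPM after injection and passed the test on no day (adjusted p 0.993, 0.8 and 0.342). Without day 3 replicates 1 and 2, still 3 of the 7 (F13a1, Vcan and Chil3) rose at day 3, whereas none of the 5 monocyte genes described above did.

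Of 7 genes of non-classical monocytes, which patrol the vessel wall, Ace rose, at day 1 (3.43, SE 0.67, adjusted p = 0.0105) and day 3 (2.45, SE 0.59, adjusted p = 0.0241), and no other did. At day 7 none of the 7 was called by edgeR (1 at an unadjusted p under 0.05, 0 by DESeq2 and 0 by limma-voom). Cx3cr1, the fractalkine receptor of these cells, was at 8.12 to 15.4 CPM in healthy, 8.40 and 17.5 CPM at day 1, 9.04 to 82.3 CPM at day 3 and 5.46 to 34.3 CPM at day 7.

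The 5 neutrophil and 5 monocyte genes could be set against each other within each library by their mean log2 CPM. The neutrophil mean minus the monocyte mean was 1.85 and 0.26 at day 1, the highest 2 values of the 14. It was -0.81, -1.80, -1.69 and -1.58 in healthy, -1.50, -1.39, -1.94 and -3.66 at day 3 and -1.49, -2.48, -2.15 and -1.36 at day 7. Day 1 replicate 1 therefore leaned most to the neutrophil genes and day 3 replicate 4 most to the monocyte genes. The zero of this difference depends on gene lengths and has no meaning of its own and, being a score over genes chosen with results known, it was not tested.

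**Figure D4:**
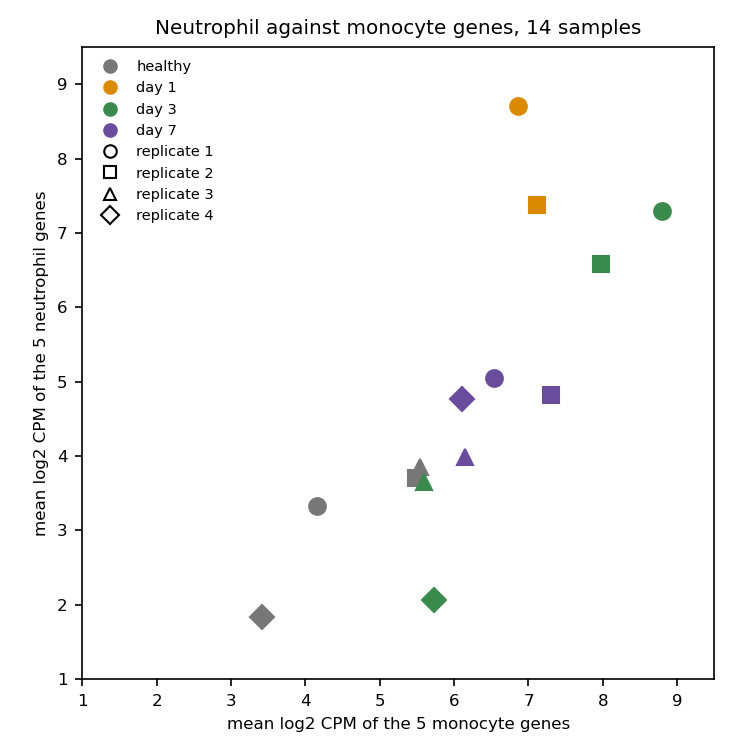
Mean log2 CPM of the 5 neutrophil genes against that of the 5 monocyte genes in the 14 libraries, coloured by day and with a symbol per replicate. The day 1 libraries reach 8.71 and 7.38 on the neutrophil axis, and day 3 replicates 1 and 2 reach 8.80 and 7.97 on the monocyte axis, far from day 3 replicates 3 and 4 at 5.59 and 5.73.

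The spread between mice of 1 group was set beside that of all genes. Within healthy the median SD of log2 CPM was 1.13 over the neutrophil genes and 0.95 over the monocyte genes, beside 0.42 over all genes tested. Within day 3 it was 1.76 (range 1.48 to 4.08) and 1.39 (0.94 to 2.52) beside 0.79, and within day 1 it was 0.86 and 0.38 beside 0.25. At day 7 the median was 0.42 over the neutrophil genes (range 0.15 to 1.58, the widest being Lcn2) and 0.68 over the monocyte genes (0.58 to 1.07), beside 0.43. S100a8 spanned 309-fold and S100a9 299-fold among the 4 day 3 mice and 1.58- and 1.94-fold among the 4 day 7 mice. Ly6c2 spanned 40.3-fold at day 3 and 2.60-fold at day 7.

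The day 3 group fell into 2 pairs of mice. In replicates 1 and 2, 5 and 4 of the 5 neutrophil genes and all 5 monocyte genes in both exceeded every healthy mouse. In replicates 3 and 4, 1 and 1 of the neutrophil genes (Lcn2) and 2 and 3 of the monocyte genes did so. The share of all genes that did so in each of these libraries was not taken, so the counts only describe the 10 genes. The pair with the high values was also the one with more genes detected. Its T and NK cell markers summed to 227.7 and 138.7 CPM, beside 20.2 and 10.1 CPM in replicates 3 and 4. Erythroid sums were 1129 and 1291 CPM beside 237.4 and 170.7 CPM, and Kupffer cell sums 1494 and 1535 beside 620.4 and 586.1 CPM. B cell and platelet sums were also higher in replicates 1 and 2. The LSEC sums were lower there, and the hepatocyte, stellate, dendritic and plasmacytoid dendritic cell sums did not divide by pair. The part of these differences in the result was not tested. With replicates 1 and 2 left out, 1 of the 10 genes (Lcn2) was called at day 3 against healthy in place of 5, and S100a8 and S100a9 turned to -1.56 and -1.96 on the log2 scale. With day 3 replicate 4 left out, 8 were called, S100a8, S100a9 and Csf3r being added.

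Between days, edgeR called the alarmin pair and none of the other 8 genes. From day 1 to day 7, S100a8 fell by 5.32 on the log2 scale (SE 1.44, adjusted p = 0.0391) and S100a9 fell by 5.21 (SE 1.44, adjusted p = 0.0422), 2 of the 10 genes where 4.40% of all genes tested fell. 5 of the 10 were lower in every day 7 mouse than in both day 1 mice (S100a8, S100a9, Csf3r, Lcn2 and Ly6c2), against 23.1% of all genes, and Lyz2 was the 1 gene higher in all of them, against 20.4% of all genes (log2 difference 2.18, SE 0.76, adjusted p = 0.0956). Both calls were lost on leaving out any 1 of the 6 libraries (lowest adjusted p 0.0711 for S100a8 and 0.0782 for S100a9). From day 1 to day 3 none of the 10 was called by edgeR (2.54% of all genes were), with 2 at an unadjusted p under 0.05 (Csf3r and Ngp), 1 by DESeq2 and 2 by limma-voom. Without day 3 replicates 1 and 2, 3 fell over these days (S100a8 by 7.47, S100a9 by 7.42 and Csf3r by 3.81). From day 3 to day 7 none was called either (1.77% of all genes were), with 4 at an unadjusted p under 0.05 (S100a8, S100a9, Ly6c2 and Plac8), 4 by DESeq2 and 5 by limma-voom. The largest of these differences was that of Ly6c2 (-3.70, SE 1.01, adjusted p = 0.0871). Without day 3 replicate 4, 3 of the 4 were called, Ly6c2 (-3.95, adjusted p = 0.0239), S100a9 (-3.82, adjusted p = 0.041) and S100a8 (-3.75, adjusted p = 0.0422).

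Ratios between the genes were also formed within each library, which removes its total. S100a8 over Ngp was 4.65, 5.33, 4.53 and 3.03 in healthy, 44.0 and 77.7 at day 1, 104.4, 315.2, 2.92 and 3.68 at day 3 and 3.45, 3.16, 8.11 and 2.51 at day 7. The 4 libraries with high S100a8 were the 4 with a ratio of 44.0 or more, and all others were at 8.11 or less. With S100a8 as the numerator, this split largely restates that of S100a8 itself. Lcn2 over S100a8 was 0.089, 0.099, 0.102 and 0.869 in healthy, 0.131 and 0.192 at day 1, 0.084, 0.304, 2.10 and 3.51 at day 3 and 0.878, 2.90, 0.228 and 0.394 at day 7. This ratio was 2.10 or more in the 2 day 3 mice whose S100a8, the denominator, was below the healthy median, and in day 7 replicate 2. All other libraries were at 0.878 or less. Lyz2 over Ly6c2 was 41.3, 51.7, 34.8 and 149.4 in healthy, 26.2 and 15.8 at day 1 and 14.7, 29.6, 59.5 and 89.8 at day 3. Day 7 gave 347.9, 480.0, 1198 and 279.0, and all 4 of these libraries exceeded all others. These ratios were formed after the values had been seen and carry no test.

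**Figure D5:**
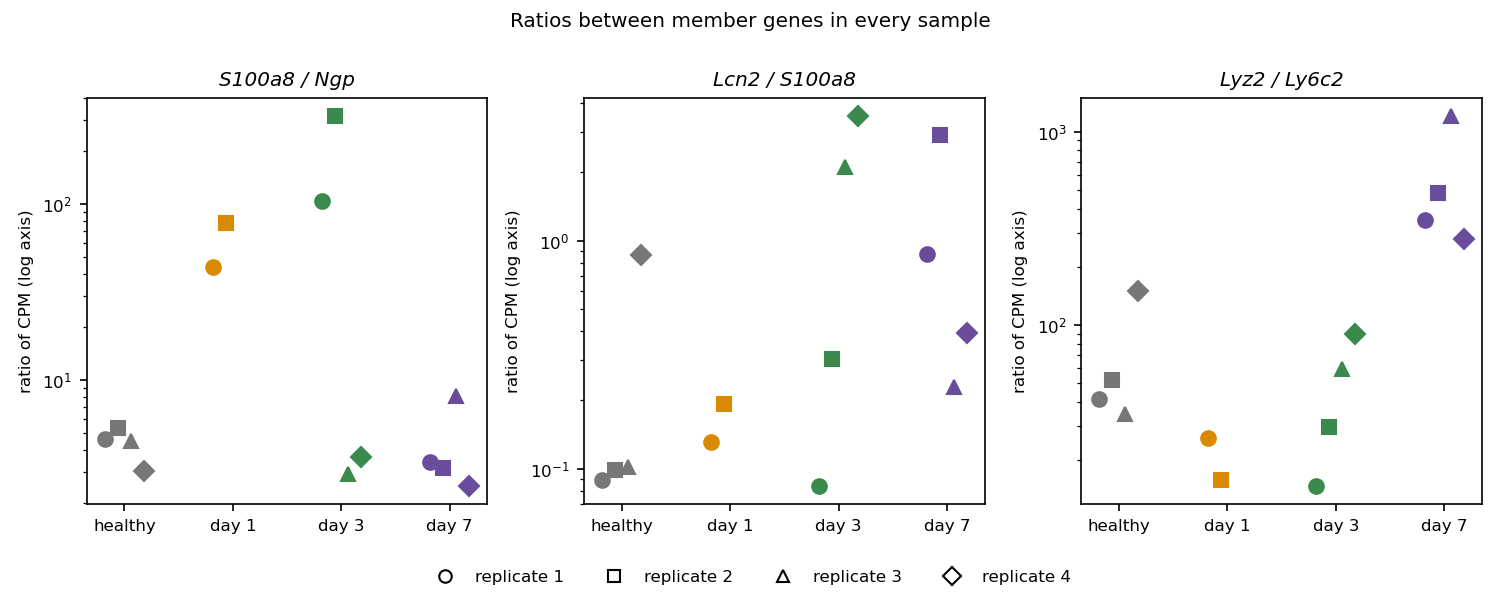
Ratio of CPM, on log axes, of S100a8 to Ngp (left), Lcn2 to S100a8 (middle) and Lyz2 to Ly6c2 (right) in each library by day, with a symbol per replicate. The left panel separates day 1 and day 3 replicates 1 and 2 from the rest, and in the right panel the 4 day 7 libraries (279.0 to 1198) lie above all others.

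Genes for the ligands and partners of these proteins were read in the same libraries. Of 9 listed, 1 rose at day 1 (Itgb2), 2 at day 3 (Ccl2 and Icam1) and 1 at day 7 (Itgb2). Ccl2, the CCR2 ligand, was at 49.6 to 105.8 CPM in healthy, 202.3 and 256.1 CPM at day 1, 881.9, 1388, 223.6 and 163.1 CPM at day 3 and 31.7 to 65.4 CPM at day 7. All injected mice of days 1 and 3 were above healthy and all of day 7 were back in or under its range, with a rise of 3.21 at day 3 (SE 0.59, adjusted p = 0.00714) and a fall from day 3 to day 7 (-3.75, SE 0.60, adjusted p = 0.0108). Ccl7, a second ligand, was 3.14 lower on the log2 scale at day 7 than at day 3 (SE 0.61, adjusted p = 0.0232) with a day 3 difference from healthy of 1.95 (SE 0.58, adjusted p = 0.0599). Ccl12 was at 1.05 to 14.5 CPM throughout and was not called by edgeR with all libraries. It was called at day 3 by limma-voom. From day 3 to day 7 it was called lower by DESeq2, by limma-voom and by edgeR without healthy replicate 4 and day 3 replicate 4. Icam1, the endothelial ligand of the CD11b integrin, rose at day 3 by 1.18 (SE 0.27, adjusted p = 0.0191), from 292.1 to 465.4 CPM in healthy to 608.8 to 1073 CPM. Itgb2, the β2 chain that pairs with CD11b, rose by 1.99 at day 1 (SE 0.51, adjusted p = 0.0453) and by 1.96 at day 7 (SE 0.45, adjusted p = 0.0356). Csf3, the ligand of Csf3r, was at 0 to 1.17 CPM in the 14 libraries. It was called against healthy by limma-voom at day 3, but on no day by edgeR or DESeq2. For the S100A8/A9 receptors Tlr4 and Ager and the lipocalin 2 receptor Slc22a17 the call also depended on the tool. edgeR called none of the 3 on any day, DESeq2 called Slc22a17 at day 1 and Ager at days 1 and 7, and limma-voom called all 3 on every day. Without healthy replicate 4 and day 3 replicate 4, edgeR called Slc22a17 at days 1 and 3 and Ager at day 7. Slc22a17 was at 14.7 to 18.4 CPM in healthy, 7.42 and 5.67 CPM at day 1, 4.18 to 17.9 CPM at day 3 and 7.90 to 11.6 CPM at day 7, so that days 1 and 7 lay below every healthy mouse. Ager was at 0.18 to 0.73 CPM in healthy and 1.52 and 1.33 CPM at day 1.

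Markers of other cells that a sort could carry were read beside these results, and their part in them was not tested. Of 12 genes shared by leukocytes, 2 rose at day 1 (Itgb2 and Spi1), none at day 3 by edgeR (10 at an unadjusted p under 0.05, 7 by DESeq2 and 11 by limma-voom) and 1 at day 7 (Itgb2). All 12 were higher in both day 1 mice than in every healthy one, against 20.0% of all genes. Their sum was 704.6 to 1490 CPM in healthy, 2199 to 3617 CPM at day 1, 1046 to 5374 CPM at day 3 and 1699 to 2274 CPM at day 7. Of 11 Kupffer cell genes none was called on any day by edgeR (1, 2 and 1 at an unadjusted p under 0.05, 1, 0 and 0 by DESeq2 and 1, 0 and 1 by limma-voom). Clec4f, which marks resident Kupffer cells, was at 58.9 to 553.6 CPM in healthy, 230.3 and 359.6 CPM at day 1, 66.5 to 226.6 CPM at day 3 and 108.8 to 349.2 CPM at day 7, and Adgre1, which encodes the F4/80 that the sort selected against, was at 10.2 to 159.4 CPM over all libraries. Of 6 plasmacytoid dendritic cell genes none was called on any day (4, 1 and 0 at an unadjusted p under 0.05, 0, 1 and 0 by DESeq2 and 4, 4 and 0 by limma-voom). Siglech, a receptor of these cells, was at 2.45 to 12.7 CPM in healthy, 39.2 and 37.7 CPM at day 1, 52.0, 32.2, 3.60 and 1.95 CPM at day 3 and 3.41 to 5.42 CPM at day 7, so it was high in the same 4 libraries as S100a8.

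Platelet genes also moved at day 1, when 3 of 4 rose (Pf4, Ppbp and Itga2b). Pf4 went from 19.9 to 35.4 CPM in healthy to 255.1 and 84.0 CPM (log2 difference 2.59, SE 0.47, adjusted p = 0.00784), and it rose at day 3 as well (1.72, SE 0.41, adjusted p = 0.0245). No T and NK cell gene of 10, B cell gene of 6 or erythroid gene of 6 was called against healthy on any day by edgeR. At day 1 the 3 lists held 1, 2 and 1 genes at an unadjusted p under 0.05, 1, 0 and 1 by DESeq2 and 1, 0 and 0 by limma-voom, and at days 3 and 7 each held at most 1 by any of these. Of 5 conventional dendritic cell genes, 1 (Zbtb46) fell at day 3 and none was called at day 1 or day 7 by edgeR (1 on each at an unadjusted p under 0.05, 0 by DESeq2 and 2 by limma-voom). Of the 14 LSEC genes, Lyve1 and Cdh5 rose and Kdr and Dnase1l3 fell at day 1, and Lyve1 rose and Fcgr2b (which encodes the CD32 used in the sort), Maf and Dnase1l3 fell at day 3, and none was called at day 7 by edgeR (6 at an unadjusted p under 0.05, 3 by DESeq2 and 8 by limma-voom). Of 10 stellate cell genes 9 rose at day 3 and 9 at day 7.

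The likeness of other genes to each group was measured over the 14 libraries. The 5 genes closest to the mean log2 CPM of the neutrophil genes, of 16848 protein-coding genes searched, were Pglyrp1 (Pearson r 0.974), Mrgpra2a (0.973), Gm5483 (0.971), Smim3 (0.97) and Mmp8 (0.967). Those closest to the monocyte mean were S100a4 (0.967), Ms4a6c (0.966), Slc2a6 (0.965), Ncf1 (0.964) and Snx20 (0.961). Among the 10 genes themselves, S100a8 and S100a9 had r = 0.997 and Ly6c2 and Plac8 0.947, while Ngp was the neutrophil gene furthest from its group's mean (0.683) and Lyz2 the monocyte gene furthest (0.784). The libraries behind these values share the 4 groups and the day 3 split, so r describes the 14 libraries only.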

How the data were processed

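Bulk RNA sequencing had been done on LSECs sorted from 14 mice, each library from a different animal. The authors trimmed reads with AfterQC after FastQC, aligned them with STAR to GRCm38.p6 and quantified them with StringTie, and the deposited table holds whole-number counts per Ensembl gene. Tool versions, the annotation release, the strand setting and the step from StringTie to whole numbers are not given in the sources used here, and reads are described both as paired and as single. Ensembl identifiers were matched to GENCODE vM21 (54495 of 54524 rows). Where short reads fit 2 genes, the authors' counting could divide or drop them, which touches Ly6c2, Lyz2 and Itgam.

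Counts were tested with edgeR 4.0.16 (R 4.3.3; TMM scaling, quasi-likelihood test, all 14 libraries, 4 group means), after filterByExpr (minimum count 10, total 15), with Benjamini-Hochberg adjustment over 26626 genes and a threshold of 0.05, two-sided. "Rose", "fell" and "called" refer to this test. CPM are scaled by TMM, log2 CPM use a prior count of 2, and SE is the log2 difference over the root of its F. Alternatives were DESeq2 1.42.0, limma-voom (limma 3.58.1) with sample quality weights, other scalings and filters, the 2 groups alone, a replicate block and leaving out each library. The fits across genes were tested on simulated data. The lowest library total was 46401496 counts. Each gene's spread between mice was estimated over all 4 groups together, so a p-value does not cover the spread of its own groups alone. For S100a8 the SD of log2 CPM was 4.07 at day 3 and 0.32 at day 7.

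The 10 genes and all lists were chosen with earlier results of these data known. Named are the 10 genes, their copies and partners, the defining genes of each list, the 2 with the largest log2 difference among those called, and the 5 genes most like each group. Other genes named where a count was 5 or fewer, and Trem1, Fpr2, Il1r2, Ccr1, Cd177 and Cebpe among them, were picked after their values were seen.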

Additional observations from a re-analysis of the deposited data

Results flagged for a closer look

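S100a9 in healthy replicate 4 was 9.99 CPM, a value flagged because its gap to the other 3 healthy mice, over the range of the group, was 0.831 and so just above Dixon's critical value for 4 samples. This was 1 flag among 30 groups of 4 tested over the 10 genes, and chance alone flags about 1 in 20. The same library held the lowest healthy S100a8 (4.03 CPM), Ngp (1.33 CPM) and Ly6c2 (3.22 CPM) and the highest summed hepatocyte genes (7203 CPM), and the part of that in its low values was not tested.

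The effects of day 1 and day 7 against healthy differed for S100a8, by -5.32 on the log2 scale as day 7 minus day 1 (edgeR, adjusted p = 0.0391), and for S100a9, by -5.21 (edgeR, adjusted p = 0.0422). All 4 day 7 mice were below both day 1 mice for both genes. Neither difference stayed under 0.05 when any 1 of the 6 libraries was left out.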

How the results depend on the processing

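The number of the 10 genes called was 4, 5 and 2 at days 1, 3 and 7 against healthy and 0, 0 and 2 for day 3 against day 1, day 7 against day 3 and day 7 against day 1. It became 7, 9, 4, 1, 4 and 5 with DESeq2 and 7, 9, 4, 2, 5 and 6 with limma-voom, and with only the 2 groups compared in the fit 1 at day 3, 4 at day 7 and 5 for day 7 against day 1. Leaving out 1 library gave 1 to 3, 1 to 8, 0 to 3, 0 to 0, 0 to 3 and 0 to 0, where a lone day 1 mouse is assumed to vary like the other groups. The cause of these moves was not tested. With 46401496 or more counts in each library, all 10 genes passed the filter on low counts.

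The numbers in the labels are not known to pair the mice. Over 18 pairs of same-numbered libraries, r of their deviations from the group mean was -0.232 to 0.096, none over 0.1. Deviations within a group depend on each other, so these values cannot decide it. With the number as a replicate block, 2, 3 and 1 genes were called at days 1, 3 and 7 and 0 for day 7 against day 1. Under the block Ly6c2 at day 7 turned to 0.13 and, for day 7 against day 1, Ccr2 turned to 0.44 and Plac8 to 0.027.

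Alternatives chosen after seeing the data left out day 3 replicates 1 and 2, or healthy replicate 4 with day 3 replicate 4. The first gave 1 gene at day 3, 3 for day 3 against day 1 and 1 for day 7 against day 3, and the second gave 8 at day 3 and 4 for day 7 against day 3. Without day 3 replicates 1 and 2 the following turned sign. They were S100a8 (-1.56) and S100a9 (-1.96) at day 3, then Ly6c2 (-2.10), Ccr2 (-1.06), Lyz2 (-0.27) and Plac8 (-1.45) for day 3 against day 1, and S100a8 (2.21), S100a9 (2.26), Csf3r (1.40), Lcn2 (0.98), Ccr2 (1.05) and Plac8 (0.72) for day 7 against day 3.

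Other turns of sign touched only differences that were not called. With 1 library (or healthy replicate 4 and day 3 replicate 4) left out, S100a9 at day 7 ran from -0.085 to 0.45 and Ly6c2 at day 7 from -0.39 to 0.31. With 1 library left out, Ly6c2 and Ccr2 for day 3 against day 1 ran from -0.24 to 1.60 and from -0.57 to 0.75. For day 7 against day 3, Csf3r ran from -0.75 to 0.36, Lcn2 from -1.85 to 0.018, Ccr2 from -0.91 to 0.57 and Itgam from -0.10 to 0.77, and for day 7 against day 1, Ngp ran from -2.21 to 0.15 and Ccr2 from -0.45 to 0.27. Ly6c2 at day 7 was also 0.033 by library size alone and 0.011 with the CPM filter, and Ccr2 for day 7 against day 1 was 0.008 with DESeq2, 0.008 with RLE factors, 0.082 by library size and 0.022 with the CPM filter. Of 240 log2 differences against healthy under the other planned settings, 201 kept direction and side of the threshold, 11 lost and 25 gained a call and 3 turned. Between days 209 of 240 kept both, 2 lost and 23 gained a call and 6 turned. Fits with 1 library left out are not in this tally, nor are those chosen after seeing the data. With 1 library left out, calls against healthy were lost more often, as given for each gene above. In those fits 4 differences against healthy and 10 between days turned.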
